A study of Mus musculus with 6 samples.

Results

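Ribosomal protein genes encode the protein parts of the small and large subunits of the cytosolic ribosome, and every growing cell transcribes them. They were read here as a class of always-active promoters. The table of accessible sites held 123510 peaks, and 88 of them carried the name of a gene starting with Rpl or Rps and a number, once names with -ps (processed pseudogenes) and the S6 kinases (Rps6k) had been left out. These 88 peaks named 71 genes, of which 35 were large subunit genes, 29 were small subunit genes and 7 were paralogs or genes with a similar name (Rpl10l, Rpl22l1, Rpl36al, Rpl3l, Rpl7l1, Rps19bp1 and Rps27l). The comparison class was the 22 peaks named after 18 -ps pseudogenes. Processed pseudogenes are intronless copies of mRNAs, here of ribosomal proteins, that retrotransposition left in the genome. The annotation used here (GENCODE vM21) lists Rpl10-ps3, Rpl36a-ps1 and Rpl9-ps6 as protein-coding, and they were kept in the class by name.

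ATAC-seq uses a transposase that inserts sequencing tags into open DNA, and it was run on whole crypt nuclei from the small intestine of C57BL/6 mice. The 3 control libraries (WT1, WT2 and WT3) came from wild type mice. The 3 knockout libraries (KO1, KO2 and KO3) came from mice in which Vil-Cre, a Cre recombinase that the villin promoter drives in the intestinal epithelium, deletes floxed exons of Smarcad1, which encodes a SNF2-family chromatin remodeler. The study kept male mice and a single floxed line, and the sources used here give no age and do not say whether animals were pooled, so p-values measure only the spread between these libraries. Any cell of another lineage in the crypt preparation keeps an intact Smarcad1 in the knockout. Of 13 markers of crypt epithelium, 9 had a peak at their start, Lgr5, Olfm4, Cdx2 and Cdh1 among them, while the table used here has no peak at the starts of Epcam, Vil1, Krt8 and Ascl2. Of 14 markers of blood, vessel, stromal, muscle and nerve cells, 3 did (Col1a1, Tubb3 and Elavl4), and the defining blood markers Ptprc, Cd3e, Itgam and Cd79a had none. Whether the table used here lists every open site was not tested, so a start without a peak cannot be read as closed, and a marker without a peak cannot be read as a cell type that was absent. The libraries held 4339306 (KO3) to 16301164 (WT3) reads in peaks, and the values are log2 read counts per peak, scaled by the authors to the largest library.

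Ribosome production takes a large share of the transcription and translation of a dividing cell, and the crypt is where the intestinal epithelium divides. In mammals, transcription of many ribosomal protein genes begins at a C within a run of pyrimidines (C or T), so that the mRNA opens with a terminal oligopyrimidine (TOP) tract through which the mTOR pathway sets its translation. Their promoters are usually CpG-rich and many lack a TATA box.

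At the annotated starts, a minority of the member genes held such a run, although more often than other promoters did. Of the 68 genes with a promoter peak, 50 matched the RefSeq promoter table (build GRCm38.p6), which holds 250 bases before and 50 bases after each annotated start. In these, the start lay in a run of at least 5 pyrimidines in 15 genes (30.0%), against 8.76% of 10520 other promoters with a peak. It lay in a run of at least 8 in 12 genes (24.0%), against 3.61%. Each member was read at a listed start inside its peak. The others were read at the first listed start of a gene with a peak within 1000 bp of any start. Some of their windows may thus lie away from a peak, also in the motif and GC counts below. The base at the start was a C in 18 genes (36.0%, against 14.1%), and in 11 of these the C lay in a run of at least 5. The other 35 of the 50 genes had no such run over the annotated start. A run that begins just beside the annotated base was not counted, as in Rpl13a, where one begins shortly after it. These genes can therefore not be read as lacking a TOP tract. The windows below run 5′ to 3′ on the gene's strand over 30 bases, with the annotated start as base 16, and capitals mark the pyrimidine run that covers it. The first 6 genes hold long runs, and the start is a C in 5 of them, Rpl27a being the exception. Rps19 and Rpl13a, the most accessible promoters per kb, and Rpl10l, the least accessible, are shown because the annotated start of each lies outside such a run.
Rpl27a (chr7:109519180-109519209, + strand): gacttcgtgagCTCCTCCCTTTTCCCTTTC
Rpl15 (chr14:18270972-18271001, - strand): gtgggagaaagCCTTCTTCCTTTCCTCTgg
Rpl14 (chr9:120571502-120571531, + strand): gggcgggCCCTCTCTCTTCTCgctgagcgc
Rps18 (chr17:33955651-33955680, - strand): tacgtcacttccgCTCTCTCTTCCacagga
Rps6 (chr4:86857353-86857382, - strand): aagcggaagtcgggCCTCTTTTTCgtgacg
Rps27 (chr3:90213634-90213663, - strand): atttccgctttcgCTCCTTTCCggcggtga
Rps19 (chr7:24884577-24884606, + strand): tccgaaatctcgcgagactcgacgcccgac
Rpl13a (chr7:45128731-45128760, - strand): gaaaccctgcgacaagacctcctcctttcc
Rpl10l (chr12:66284387-66284416, - strand): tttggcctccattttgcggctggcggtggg

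Around the start, 7 motifs were searched by their letters on both strands of the 300-base windows, and a base could count for more than 1 motif. The ETS family motif CTTCCGG was found in 18 of 50 ribosomal protein promoters (36.0%), against 17.1% of the other promoters with a peak and 9.12% of all 27025 promoters in the table. The YY1 motif AAGATGG was found in 7 (14%, against 7.06% of the others with a peak). The other 5 were not more frequent by as much. The GC box GGGCGG of SP and KLF factors was in 60.0% of members and 62.6% of the others with a peak, CCAAT in 32% and 38.9%, the TATA box TATAAA in 10.0% and 7.95%, the NRF1 core GCATGCG in 6% and 6.25%, and the E-box CACGTG in 8% and 10.1%. The median GC content of the member windows was 57.5% with 21 CpG dinucleotides, against 60.7% and 20 in the others with a peak. The 120 bases just before the start are printed for the strongest promoter (Rps19), for Rps21 and Rpl37, which were also among the 8 strongest and hold ETS motifs, for Rps6, and for the weakest (Rpl10l), with motif letters in capitals. A motif whose letters run past the last base is cut off there, as in Rps21.
Rps19 (chr7:24884472-24884591, + strand): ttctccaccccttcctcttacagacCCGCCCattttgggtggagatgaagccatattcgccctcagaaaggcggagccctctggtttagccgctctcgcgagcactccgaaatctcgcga
Rps21 (chr2:180257259-180257378, + strand): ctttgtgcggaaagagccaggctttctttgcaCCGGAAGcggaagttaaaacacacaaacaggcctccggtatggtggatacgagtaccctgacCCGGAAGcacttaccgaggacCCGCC
Rpl37 (chr15:5116493-5116612, + strand): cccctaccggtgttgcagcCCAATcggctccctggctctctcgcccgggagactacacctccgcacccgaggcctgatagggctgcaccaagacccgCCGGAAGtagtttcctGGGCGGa
Rps6 (chr4:86857368-86857487, - strand): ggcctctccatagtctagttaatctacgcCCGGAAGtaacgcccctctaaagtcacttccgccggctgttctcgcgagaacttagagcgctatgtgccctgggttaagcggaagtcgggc
Rpl10l (chr12:66284402-66284521, - strand): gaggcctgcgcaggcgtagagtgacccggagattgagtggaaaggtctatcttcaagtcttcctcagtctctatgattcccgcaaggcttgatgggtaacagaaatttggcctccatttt

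Nearly every ribosomal protein gene in the table had an open promoter in every library. A promoter peak was a peak that is named after the gene and contains its annotated start. Of the 71 genes, 68 had one (33 large subunit genes, 29 small subunit genes and 6 of the paralogs). Each promoter peak held 11 to 1383 reads per library, and the fewest were at Rpl10l. In the median promoter the poorest library still held 99 reads. The 3 genes without such a peak were Rpl12, Rpl4 and Rpl3l, the muscle paralog of Rpl3. The starts of Rpl12 and Rpl4 were open too, in peaks named after Lrsam1 (level 7.82) and Zwilch (6.98). The Rpl3l peak, which is strong (9.36, mean log2 of 6 libraries), covers the start of Msrb1, and the peak named after Rpl4 covers the start of Snapc5. The 20 peaks away from a start lay 2616 to 11847 bp from the start of the gene they were named after. The second Rpl24 peak covers the start of Zbtb11.

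In strength the class lay close to coding promoters that have a peak. Coding genes without a peak near a start did not enter this comparison. The median promoter peak of the class had a log2 read count of 8.21, against 8.11 over all 12302 promoter peaks of protein-coding genes (the members included) and 5.77 over all peaks. Library by library, the member median was 8.16, 7.90 and 8.47 in WT1, WT2 and WT3 and 8.19, 7.84 and 8.72 in KO1, KO2 and KO3. It exceeded the median of coding promoters in 6 of 6 libraries, but by 0.01 to 0.17 only (0.07 ± 0.07 over the WT libraries and 0.13 ± 0.05 over the KO libraries, SD, n = 3 each). Of the 68 promoters, 40 lay above the median of coding promoters and 28 below it. Peaks differ in width, so levels were compared between genes as log2 read counts per kb of peak. On that scale the member median was 7.58 and that of coding promoters was 7.37, and the member median was again the higher in 6 of 6 libraries (by 0.08 to 0.21). Members were peaks named after their gene, whereas coding promoter peaks counted under any name. The 9 ribosomal protein start peaks under a neighbour's name had medians below those of coding promoters (7.82 in level and 7.24 per kb). The comparison with coding promoters thus covers the 68 named peaks without these 9. Only 5 of 68 members reached the top 10% of coding promoters per kb, and 1 fell in the lowest 10%. The 68 promoters took 0.168% to 0.194% of the reads in peaks per library and made up 0.0551% of the peaks.

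**Figure D1:**
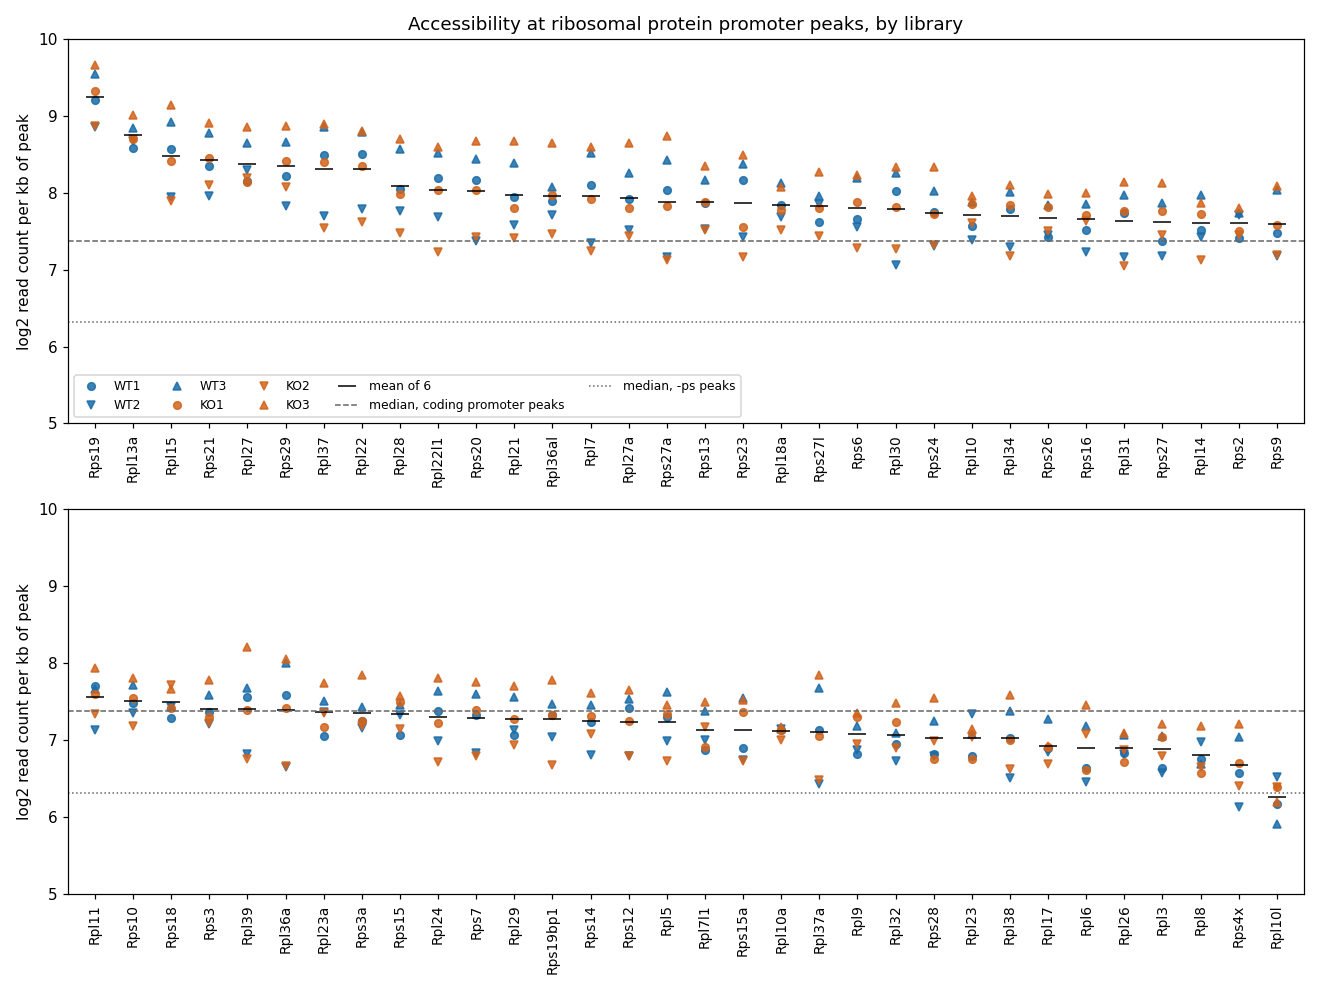
Log2 read count per kb of peak (y axis) at 64 of the promoter peaks (x axis, ordered by the mean of 6 libraries). Symbols mark the libraries, the short bar is the mean, and dashed and dotted lines are the medians of coding promoter peaks (7.37) and of -ps peaks (6.31). Means ran from 9.24 at Rps19 to 6.26 at Rpl10l, and down-pointing symbols (WT2 and KO2) lie lowest in most genes.

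Rps19, whose protein is needed to mature the small subunit and whose human counterpart is mutated in Diamond-Blackfan anaemia, had the strongest promoter (chr7:24883501-24885300). Its log2 read counts were 10.06, 9.70 and 10.39 in WT and 10.17, 9.71 and 10.50 in KO, and its mean per kb of 9.24 lay at the 99.4th percentile of coding promoters. Rpl13a followed at 8.75 per kb (chr7:45128251-45129750), with values of 9.17, 9.26 and 9.42 in WT and 9.28, 9.28 and 9.60 in KO. WT and KO overlapped at both genes, and the highest value was KO3 in each. Next came Rpl15 (8.48 per kb), Rps21 (8.42), Rpl27 (8.38), Rps29 (8.34) and Rpl37 (8.31), at the 88.8th to 92.4th percentile.

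The weakest promoter was that of Rpl10l, the retrogene copy of Rpl10 known for its expression in testis. Its peak (chr12:66283951-66284550) had values of 5.43, 5.79 and 5.17 in WT and 5.65, 5.65 and 5.46 in KO, on 11 to 36 reads per library, a level at the 4.59th percentile of coding promoters. Among the canonical genes, Rps4x (6.68), Rpl8 (6.80) and Rpl3 (6.88) had low values per kb. Rps4x was low on both scales (6.75 in level), with values of 6.65, 6.20 and 7.11 in WT and 6.77, 6.47 and 7.28 in KO.

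The subunits differed little from each other. The median per kb was 7.40 for 33 large subunit promoters and 7.60 for 29 small subunit promoters, and the range was 6.80 to 8.75 for the first and 6.64 to 9.24 for the second. Paralogs other than Rpl10l lay within the range of the canonical genes. Rpl22l1, the paralog of Rpl22, reached 8.04 per kb against 8.31 for Rpl22. Rpl36al, the autosomal copy of the X-linked Rpl36a, reached 7.96 against 7.39, although its peak also holds the start of Mgat2. Rps27l, a p53-induced paralog of Rps27, reached 7.82 against 7.62. Rpl7l1 had 7.13 against 7.95 for Rpl7, and Rps19bp1, which encodes a protein that binds Rps19 and is not a ribosomal protein, had 7.27.

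The X chromosome carried 4 of the promoters, and male cells have a single copy of it. Their levels per kb were 7.71 for Rpl10, 7.40 for Rpl39, 7.39 for Rpl36a and 6.68 for Rps4x, and the median of the 4 was 7.40 against 7.60 for the 64 autosomal promoters. The 4 values lay within the autosomal range.

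What the peaks hold besides the gene's own start was counted. In 9 of 68 promoters the peak also covered the start of another protein-coding gene (among them Rps18 with Vps52, Rps27 with Rab13, Rpl9 with Lias, Rpl15 with Nkiras1 and Rps28 with Ndufa7). These 9 had a median of 7.62 per kb, against 7.56 for the other 59. A small nucleolar RNA start, as in Rpl27a with Snora3 and Rps3 with Snord15a, lay in 11 peaks, with a median of 7.24 per kb. Many ribosomal protein genes carry such RNAs, which guide the modification of ribosomal RNA, in their introns. Level was also set beside the sequence features of the 50 matched promoters, as medians per kb and with no test. The 18 promoters with the ETS motif had 7.58 and the 32 without it 7.50. The gaps were wider for CCAAT (7.72 in 16 against 7.45 in 34) and the GC box (7.65 in 30 against 7.37 in 20), and the 15 with a pyrimidine run of at least 5 over the start had 7.62 against 7.39 for the other 35. Promoters with the NRF1 core (7.23 in 3 against 7.59 in 47) and the TATA box (7.40 in 5 against 7.59 in 45) had the lower median, on few promoters. The YY1 motif (7.62 in 7 against 7.56 in 43) and the E-box (7.65 in 4 against 7.53 in 46) went with narrower gaps.

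Peaks named after -ps pseudogenes were far weaker than the member promoters. Their median log2 read count was 5.17, below the median of all peaks, and the member promoters exceeded them by 2.49 (KO2) to 3.64 (KO3) in every library. Per kb the gap was smaller, 0.87 to 1.65, and -ps peaks were narrower (median 450 bp against 1500 bp). The -ps median per kb was 6.31, near the 6.41 of all peaks. The 20 ribosomal protein peaks away from a start lay between -ps peaks and member promoters, with medians of 6.95 in level and 6.82 per kb. By the distance column in the table, 0 of the 22 peaks overlapped its pseudogene, and they lay 119 to 4419 bp away. They therefore report the chromatin near a pseudogene, not on it. The annotation (GENCODE vM21) holds 289 -ps genes of this family, and 8 had a peak over them, named in the table after another gene or not at all. The 8 peaks over a pseudogene were stronger than the 22 named peaks, with a median level of 6.53 (6.70 per kb) and a range of 4.99 to 8.79. At 4 of them the level was above 7, namely 8.79 at Rpl35a-ps5, 8.26 at Rpl29-ps2 (named Akr1e1), 7.79 at Rpl34-ps1 (named Thnsl2) and 7.10 at Rps13-ps8, so the low level of the 22 holds for peaks named after pseudogenes and not for these. The authors kept reads with a mapping quality of at least 20, which removes reads that match copies equally well, and its part in the low number of pseudogenes with a peak was not tested.

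The strongest -ps peaks were those of Rpl7a-ps8 (chr7:19952251-19953600) and Rpl9-ps6 (chr19:32462851-32463900). Rpl7a-ps8 had 7.66, 7.99 and 8.09 in WT and 7.75, 7.68 and 8.21 in KO. Rpl9-ps6 had 7.28, 7.59 and 7.99 in WT and 7.75, 7.35 and 8.04 in KO. They were the only 2 of the 22 above the weakest canonical member (Rps28, level 6.60). Rpl19-ps7 came next with a mean of 6.54. The weakest were a pair of adjacent Rps2-ps6 peaks (4.58 and 4.75), on 3 to 39 reads per library.

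**Figure D2:**
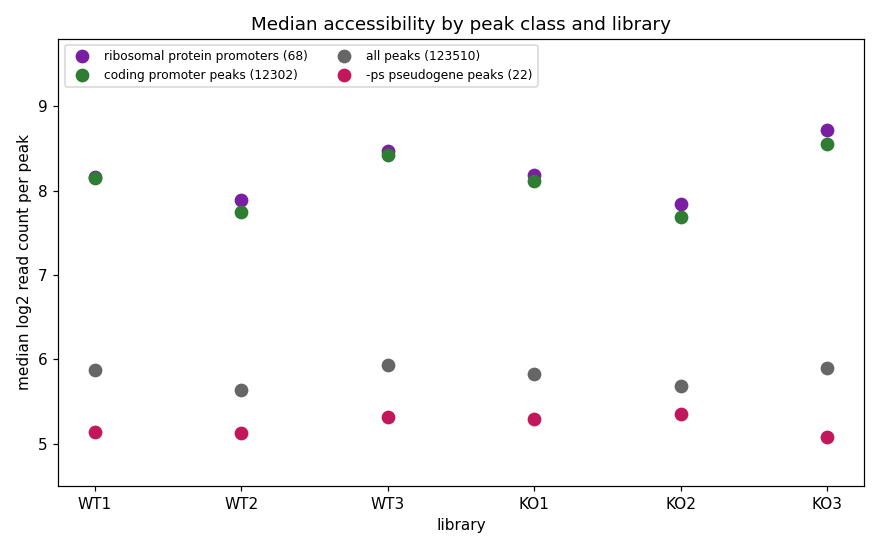
Median log2 read count (y axis) in each library (x axis) for ribosomal protein promoters, all coding promoter peaks, all peaks and -ps peaks. The first 2 classes lie within 0.17 of each other in every library and shift together, from 7.84 in KO2 to 8.72 in KO3 for the members, while -ps peaks stay between 5.08 and 5.35.

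The spread between the 6 libraries was close to that of other promoters, and most members had the same libraries high and low. The median SD over the 6 libraries was 0.33 for member promoters, 0.36 for coding promoters and 0.30 for -ps peaks (log2 scale, as deposited). After each library was centred on its median it was 0.27, 0.28 and 0.30. This value depended on the scaling, with member medians of 0.18 under quantile normalization and 0.19 after scaling to the total over peaks. Among coding promoters in the middle 50% of member levels (7.67 to 8.82, 4478 peaks) the centred SD was 0.28, against 0.23 for the 34 members in the same range. Counting error alone gives a median SD of 0.12 at member promoters, and at 33 of them the centred SD was more than 2 times its own counting SD. At -ps peaks the median counting SD was 0.35 against the observed 0.30, and single peaks differed. The centred SD was at or below the peak's own counting SD at 12 of 22 and above it at 10, by more than 1.5 times at 6 and by more than 2 times at 0. The highest ratio was 1.92, at the stronger Rpl9-ps6 peak (0.28 against 0.14).

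The libraries with number 2 were low and those with number 3 were high at these promoters. A number 2 library was the lowest of the 6 at 54 of 68 members (79.4%, against 81.7% of coding promoters and 56.4% of all peaks), and a number 3 library was the highest at 64 (94.1%, against 85.8% and 57.5%). The mean of WT3 and KO3 minus the mean of WT2 and KO2 was positive at 65 of 68 members, with a median of 0.68 on the log2 scale, against 0.69 over coding promoters. It ranged from -0.40 at Rpl10l to 1.44 at Rps27a, and only Rpl10l, Rpl23 (-0.08) and Rps18 (-0.02) were at or below 0. Across the 68 promoters this gap went with the level (Spearman rho 0.38, Pearson r 0.45), as it did across the 12302 coding promoters (0.38 and 0.41). These promoters share the same libraries, so the correlations are descriptions. The labels give no date or batch for the numbers.

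Among the steadiest promoters was Rpl10a, with a centred SD of 0.11. Rpl10a, a large subunit protein gene on chromosome 17 (chr17:28327201-28330350), had 8.79, 8.80 and 8.79 in WT and 8.78, 8.65 and 8.82 in KO, a range of the size that counting alone gives (counting SD 0.10). The most variable was Rps27a (chr11:29546701-29549400), which encodes a fusion of ubiquitin with a small subunit protein and shares its peak with the start of Clhc1. Its values were 9.46, 8.60 and 9.85 in WT and 9.26, 8.55 and 10.17 in KO, with a centred SD of 0.54 and the number 2 libraries lowest in each group. Rpl36a (centred SD 0.51) and Rpl37a (0.48) were likewise lowest in the number 2 and highest in the number 3 libraries. Rpl36a had 7.66, 6.71 and 8.07 in WT and 7.48, 6.73 and 8.13 in KO, and its group means differed by -0.03 (KO minus WT).

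**Figure D3:**
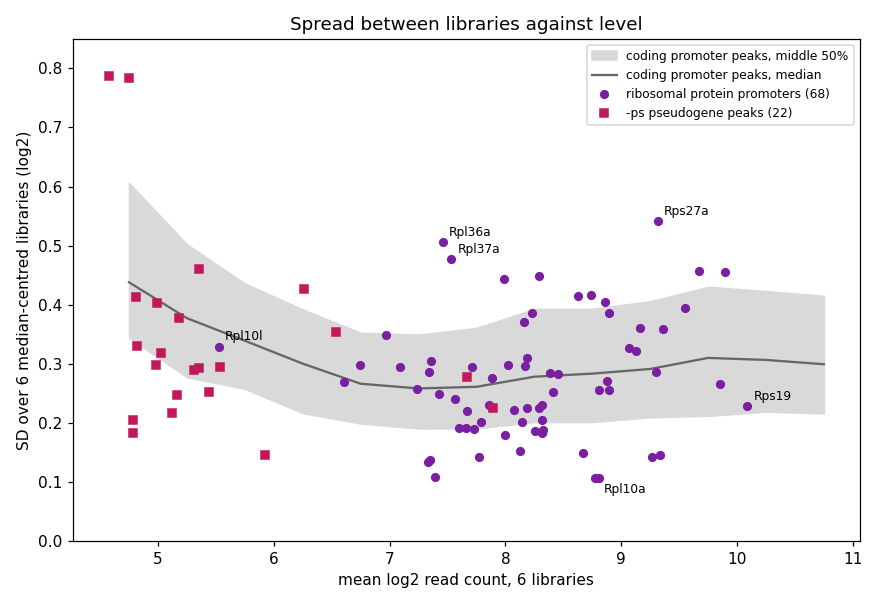
SD over the 6 libraries after median centring (y axis, log2) against mean log2 read count (x axis) for 68 member promoters and 22 -ps peaks, with the median and middle 50% of coding promoter peaks in bins of level. Members scatter around the coding median from 0.11 (Rpl10a among them) to 0.54 (Rps27a), and the 2 Rps2-ps6 peaks lie highest at 0.79 and 0.78.

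The comparison of KO with WT asked whether loss of Smarcad1 moves the accessibility of this class. No ribosomal protein peak passed the test. With limma on all peaks, 0 of 88 member peaks and 0 of 22 -ps peaks had an adjusted p-value below 0.05, where 0.0% of all peaks did. As limma called no peak at all, these counts do not set the class apart from other peaks. The paper, which used edgeR, reports sites with significantly changed accessibility in the knockout, most of them more open. At an unadjusted limma p-value below 0.05 there were 0 of 88 members and 0 of 22 -ps peaks, against 2.28% of all peaks and 0.406% of coding promoter peaks. The 95% interval of the change held 0 at all 88 member peaks, and at 67 of the 68 promoters it lay within a change of 1 on the log2 scale in either direction. The exception was Rps23, whose interval ran from -1.07 to 0.57. In this fit, without a block for the library number, changes smaller than about 0.69 typically would not reach an unadjusted limma p-value of 0.05 at a single promoter. That value is the median distance from the estimate to the end of its interval, with 3 libraries per group. The adjusted test over all peaks is stricter. It called no coding promoter peak, although their changes ran from -2.75 to 1.28, so a change above 0.69 need not have been called. The limit depends on the model. With such a block, Rps27 alone among the members had an unadjusted limma p-value below 0.05 (0.0398, adjusted 0.693), at a change of 0.31.

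The 3 KO values and the 3 WT values overlapped at all 88 member peaks. They were apart in 6.8% of all peaks and 1.98% of coding promoter peaks. Among -ps peaks 2 of 22 had all KO values above all WT values, against 2.7% of all peaks, and 0 of 22 had them below, against 4.1%. Rpl10-ps3, named after its values were seen, had 4.88, 4.20 and 4.64 in WT and 5.03, 5.16 and 5.00 in KO. It rests on 8 to 25 reads per library, and its change of 0.49 had an unadjusted limma p-value of 0.158.

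The changes at member promoters ran from -0.25 at Rps23 to 0.31 at Rps27, with standard errors of 0.26 to 0.45. Their median was 0.05, against 0.01 over coding promoters, -0.02 over all peaks and 0.04 over -ps peaks. KO was the higher at 45 of 68 members (66.2%), against 51.8% of coding promoters and 46.9% of all peaks. By subunit, KO was the higher at 18 of 33 large subunit promoters (median change 0.01), at 23 of 29 small subunit promoters (0.07) and at 4 of 6 paralogs (0.07). The count of 45 was 41 to 48 under the other scalings but did not hold without single libraries. KO was the higher at 23 members without WT2 and at 14 without KO3, with medians of -0.08 and -0.16, and at 62 without WT3 and 65 without KO2, with medians of 0.21 and 0.27. Coding promoters shifted with the members in these fits, with medians of -0.16 without WT2, -0.19 without KO3, 0.16 without WT3 and 0.22 without KO2.

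The peaks with the smallest p-values in each direction are given because no member passed the threshold. Rps27 (chr3:90213151-90214350), a small subunit gene whose peak also covers the start of Rab13, had 7.63, 7.43 and 8.13 in WT and 8.02, 7.71 and 8.39 in KO. The groups overlapped, and the change of 0.31 with a standard error of 0.31 had an unadjusted limma p-value of 0.343. Also on that side were Rpl32 (0.28), Rpl6 (0.29) and Rpl3 (0.27), with unadjusted limma p-values of 0.349 to 0.391. On the other side stood Rpl4 (the peak over the Snapc5 start, -0.24), Rpl22 (a peak 6925 bp from its start, -0.23), Rps23 (-0.25), Rpl17 (-0.17) and Rps27l (a peak 2886 bp from its start, -0.14), with p-values of 0.402 to 0.637. Rps23 (chr13:90922501-90923850) had 8.60, 7.86 and 8.81 in WT and 7.98, 7.60 and 8.93 in KO, so that KO3 was the highest of the 6 values although the KO mean was the lower. The adjusted limma p-value was 1.0 at all of them.

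**Figure D4:**
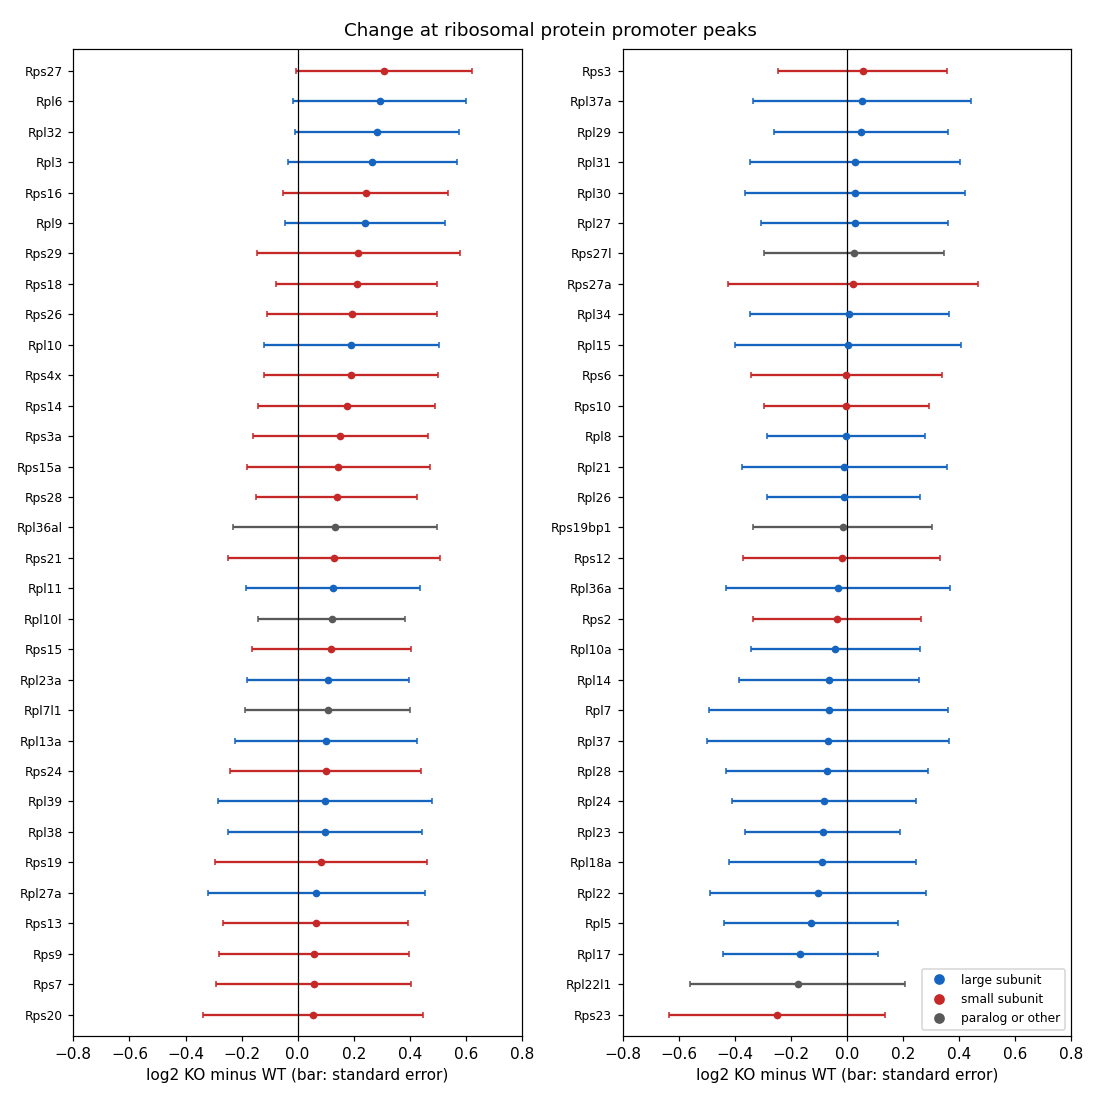
Log2 KO minus WT (x axis) with its limma standard error (bar) at 64 of the promoter peaks (y axis), the 32 higher values on the left and the 32 lower ones on the right. Colour marks the subunit, and apart from Rps23 and Rps27 all values lie between -0.18 and 0.29, with a standard error larger than the value itself in each.

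At genes with more than 1 peak, the other peaks were mostly weaker than the promoter, and none passed the test. Rps15a, which had 3 peaks, the most of any member, was at 7.72 in level at its start, 6.69 in a peak 3897 bp away and 7.22 in a peak 11847 bp away. Its changes were 0.15, -0.05 and -0.01, with standard errors of 0.33, 0.29 and 0.28. Over all 20 peaks away from the start the median level was 6.95 and the median change 0.01, with 10 higher and 10 lower in KO. Rpl22l1 and Rpl10l each had a second, weak peak (4.98 and 5.63 in level) with changes of 0.14 and -0.09.

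Genes that work with the ribosomal proteins were followed as fixed lists, and 0 promoter peaks of any list were called by limma or had an unadjusted p-value below 0.05. The 6 cytosolic ribosomal protein genes outside the naming rule (Rplp0, Rplp1, Rplp2, Rpsa and Fau among them) all had a promoter peak, with a median of 7.61 per kb and a median change of 0.10 (5 higher and 1 lower in KO). Rplp0, the base of the ribosomal stalk, was the strongest at 8.36 per kb. All 78 mitochondrial ribosomal protein genes had a promoter peak (77 peaks), with a median of 7.44 per kb and a median change of 0.01 (43 higher and 34 lower). The 34 translation initiation factor genes had 7.64 per kb and 0.01, with Eif2b1 at 0.35 and Eif1ax at -0.42 having the smallest p-values (0.269 and 0.381). The 6 genes of the elongation factor list had 7.86 per kb and 0.08. That list also holds Tpt1, its strongest at 9.20, which does not encode an elongation factor. The strongest elongation factor gene was Eef1a1, which delivers aminoacyl-tRNA, at 8.39. The 49 ribosome biogenesis genes had 7.65 per kb and 0.00 (24 higher and 25 lower). Of 15 genes for RNA polymerase I and rRNA transcription, 14 had a promoter peak, with 7.40 per kb and 0.00. The medians per kb of these lists thus lay from 7.40 to 7.86, around the 7.58 of the ribosomal protein promoters.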

How the data were processed

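The members and gene lists were chosen with earlier results of these data known. Per the labels, libraries from 50000 cells were sequenced as paired 50 bp reads, and the submitters' processing notes name Trim Galore 0.4.1, Bowtie2 2.2.5, MACS and edgeR with GRCm38. The authors called 1 peak set in SeqMonk with duplicates removed and deposited log2 read counts per peak scaled to the largest library. Which libraries were pooled for peak calling is not given in the sources used here. The deposited values gave whole reads at 100.0% of peaks (tolerance 0.01 reads). 1 read was worth 1.00 (WT3) to 3.99 (KO3) on the linear scale, so KO3 is the least precise. The authors' second table of their own fold changes and p-values was not used. KO was compared with WT by limma 3.58.1 (R 4.3.3, trend, Benjamini-Hochberg) on all 123510 peaks and 6 libraries, without a block, where the authors had used edgeR. The fit was tested on simulated data with planted changes far larger than those at the members and no effect shared by the library number. Its power for changes of the members' size was not tested. Starts came from RefSeq (GRCm38.p6) or GENCODE vM21. Starts within 1000 bp counted for coding promoters. The named genes were, by rule, the 5 smallest p-values in each direction, the 8 highest and 5 lowest promoters per kb, the 3 largest and 3 smallest centred SDs, the paralogs, the X-linked members, the gene with most peaks and the 3 strongest and 3 weakest -ps peaks. Single results for a few of these genes are not reported here, although the genes stay in the counts and medians. Alternatives were other scalings, a pseudocount of 5, a minimum mean of 50, promoter peaks only, voom on recovered reads, a threshold of 0.1, a replicate block and each library left out. Leaving out both number 2 libraries, and keeping only peaks without another coding start, were added after seeing the data, as was leaving out each library at start peaks under a neighbour's name.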

Additional observations from a re-analysis of the deposited data

How the results depend on the processing

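The counts of ribosomal protein peaks, -ps peaks and list promoters called by limma were 0 under every alternative run. Over all peaks the count of 0 (2821 at an unadjusted p-value below 0.05) became 2 with median centring, 3 with quantile normalization, 3 with total scaling (each library to its sum over peaks), 3 with voom, and ranged from 0 to 30 when a library was left out, with 30 without KO2 and 1 without WT3. With the replicate block it was 272. The labels do not say that the numbers pair the libraries, and the main fit was set without a block. Same-numbered deviations from the group mean correlated at 0.04, 0.42 and 0.41 for numbers 1, 2 and 3. The WT and KO libraries of numbers 2 and 3 thus shared part of their deviation, which the main fit leaves in the error. With the block, only Rps27 among the members had an unadjusted limma p-value below 0.05 (0.0398, adjusted 0.693), against 8491 of all 123510 peaks. Among the -ps peaks only Rpl19-ps7 did (0.0486, adjusted 0.722, at a change of -0.39). The cause of the shared deviation was not tested. The spread of member promoters, 0.33, was 0.18 with quantile normalization, 0.19 with total scaling and 0.25 without both number 2 libraries. The median change of 0.05 stayed between 0.03 and 0.10 in the alternatives that keep all libraries or leave out both number 2 libraries, and ranged from -0.16 to 0.27 when 1 library was left out. The median level ranged from 8.04 to 8.38. Of 90 recomputed changes at named peaks 2 reversed, namely Rpl22 to 0.048 without KO1 (-0.39 to 0.048) and Rps23 to 0.035 without KO2 (-0.63 to 0.035). All 340 recomputed levels moved by less than the spread between libraries. Depth limits the -ps peaks most, with a median of 8 reads in the poorest library.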

Other observations

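The naming of peaks by the nearest feature left 9 ribosomal protein genes with an open start under a neighbour's name. These were Rpl12 (named Lrsam1), Rpl13 (Gm20388), Rpl19 (Gm11629), Rpl35 (Wdr38), Rpl35a (Gm17106), Rpl4 (Zwilch), Rpl41 (Zc3h10), Rpl7a (Med22) and Rps25 (Trappc4). Their median was 7.24 per kb, below the 7.58 of the promoters named for ribosomal protein genes, and Rpl41 was the strongest in level at 9.70 (9.70, 9.36 and 9.98 in WT, 9.66, 9.37 and 10.15 in KO). KO was the higher at 9 of 9 (against 51.8% of coding promoters), by 0.04 to 0.35 with a median of 0.15 and standard errors near 0.29, and the smallest unadjusted limma p-value was 0.239. This count did not hold without single libraries: KO was the higher at 4 of 9 without KO3, with a median of -0.01 (18.5% of coding promoters), and at 6 of 9 without WT2, with a median of 0.06 (23.8%). It was 9 of 9 without each of the other 4 libraries. These 9 were looked up after the other values were seen. For 5 annotated genes, Rpl18, Rpl36, Rpl39l, Rpl3l and Rps27rt, no peak of the table used here lay within 1000 bp of the annotated start, which does not show that these starts were closed.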
